A study of Mus musculus with 11 samples.

Results

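The Ifi200 family, also called the PYHIN family, was followed in whole fetal livers of mice lacking caspase-8 together with TNFR1 or MLKL. The members were the 8 genes *Ifi203*, *Ifi204*, *Ifi205*, *Ifi207*, *Ifi209*, *Ifi211*, *Ifi213* and *Mndal*, found by their Ensembl identifiers among the 52636 genes of the count files. RNA was sequenced from 11 untreated livers collected at E15.5. There were 3 WT livers, 2 livers lacking *Tnfr1* (labelled TNFR1KO, here Tnfr1 KO), 3 lacking both *Casp8* and *Mlkl* (Casp8 MLKL dKO, here Casp8 Mlkl dKO) and 3 lacking both *Casp8* and *Tnfr1* (Casp8 TNFR1 dKO, here Casp8 Tnfr1 dKO). All alleles were constitutive deletions kept on a C57BL/6N background, so every cell of the embryo carried them. A WT liver and a Tnfr1 KO liver both have intact *Casp8*. The 3 comparisons of Casp8 Tnfr1 dKO livers below share the same 3 Casp8 Tnfr1 dKO livers. Nothing in the labels gives the litter of an embryo, so p-values measure the spread between these livers.

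PYHIN proteins are built from a pyrin domain, which assembles into protein complexes, and, in most members, a HIN-200 domain, which binds double-stranded DNA. Interferons induce many of the genes, commonly through an ISRE (interferon-stimulated response element), a promoter motif bound by interferon regulatory factors. AIM2, a relative outside the 8 members, senses cytosolic DNA and starts an inflammasome. IFI204 has been described as a DNA sensor acting with STING and as a transcriptional regulator in myeloid cells, and IFI205 as a regulator of inflammasome genes in macrophages. Roles of the other members are less well known.

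The 8 members lay on chromosome 1 of GRCm38 between 173566283 and 174031810, a stretch of 465.5 kb in which 7 were read from the minus strand and *Ifi209* from the plus strand. In order they were *Ifi213*, *Ifi209*, *Ifi207*, *Ifi204*, *Mndal*, *Ifi211*, *Ifi203* and *Ifi205*. The annotated span of *Mndal* contained that of *Ifi211*, and its exons shared 37 bases with those of *Ifi203* and 118 with those of the model *Gm38050*, all on the same strand. *Aim2* and *Ifi206* lay before the first member, and *Ifi208*, *Ifi203-ps* (a pseudogene) and *Ifi202b* lay among the members.

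Promoter windows of 300 bases, 250 before and 50 after a transcription start, were available from RefSeq (GRCm38.p6) for 7 of the 8 members, the exception being *Ifi204*. The letters GAAANNGAAA, which hold the core of an ISRE, were searched on both strands (TTTCNNTTTC on the other). They stood in a window of 6 of the 7 members, *Ifi209* being without, whereas 3.44% of all 32851 windows and 3.99% of all 27025 genes held them. The letters TTCNNNGAA, the core of the GAS element of interferon gamma responses, stood in no window of a member and in 8.30% of all windows. Of 5 other PYHIN genes with a window, *Ifi206*, *Ifi208* and *Ifi214* held the ISRE letters, and *Aim2* and *Ifi202b* did not. A match describes the sequence and is not a site shown to be bound.

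The 40 bases around the match are shown to compare the members with each other, with the matched letters, or the letters at the same place of *Ifi209*, in capitals.
Ifi213 (chr1:173599321-173599360, minus strand): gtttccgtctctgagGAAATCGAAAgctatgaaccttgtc
Ifi209 (chr1:173630765-173630804, plus strand): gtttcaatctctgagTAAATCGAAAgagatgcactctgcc
Ifi214 (chr1:173536012-173536051, minus strand): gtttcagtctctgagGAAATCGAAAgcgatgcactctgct
Ifi207 (chr1:173741826-173741865, minus strand): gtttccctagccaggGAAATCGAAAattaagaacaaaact
Mndal (chr1:173880199-173880238, minus strand): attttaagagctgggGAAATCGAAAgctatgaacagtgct
Ifi211 (chr1:173913059-173913098, minus strand): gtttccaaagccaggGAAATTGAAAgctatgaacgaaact
Ifi203 (chr1:173942503-173942542, minus strand): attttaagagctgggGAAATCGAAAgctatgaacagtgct
Ifi205 (chr1:174031865-174031904, minus strand): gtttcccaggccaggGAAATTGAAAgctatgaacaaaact

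The letters were gaaatcgaaa in *Ifi213*, *Ifi207*, *Mndal* and *Ifi203*, and gaaattgaaa in the neighbours by sequence *Ifi211* and *Ifi205*. The match began 73 bases before the start site in *Ifi213*, 41 in *Ifi207*, 37 in *Ifi211*, 36 in *Mndal*, 35 in *Ifi203* and 134 in *Ifi205*. *Ifi205* held another match on the other strand from 23 bases after its start. *Mndal* also held a match on the other strand, 54 bases before the start site of its other window. The other *Ifi203* window held no match. *Ifi209* and *Ifi214* were 96.0% identical over 299 aligned bases of their windows. Counted from 1 at the 5′ end of the 40 bases and with *Ifi214* named first, the 2 stretches differed by G7A, G16T, C27A and T40C, and G16T fell on the first letter of the match. The *Ifi203* and *Mndal* windows were 97.6% identical over 289 aligned bases, and those of *Ifi211* and *Ifi205* were 94.5% identical over 199. The *Ifi207* window was 88.4% identical to that of *Ifi211* over 294 bases, and the *Ifi213* window 98.9% identical to that of *Ifi206* over 266. Whole windows of *Ifi213*, *Ifi207* and *Ifi203* stand for these 3 groups, again with the match in capitals.
Ifi213 promoter (chr1:173599223-173599522, minus strand): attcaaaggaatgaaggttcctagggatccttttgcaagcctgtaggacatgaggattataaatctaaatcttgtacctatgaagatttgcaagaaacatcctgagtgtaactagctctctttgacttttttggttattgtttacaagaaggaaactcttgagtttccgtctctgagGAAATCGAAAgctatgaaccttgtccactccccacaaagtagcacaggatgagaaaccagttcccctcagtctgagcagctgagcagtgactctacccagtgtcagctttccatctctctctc
Ifi207 promoter (chr1:173741760-173742059, minus strand): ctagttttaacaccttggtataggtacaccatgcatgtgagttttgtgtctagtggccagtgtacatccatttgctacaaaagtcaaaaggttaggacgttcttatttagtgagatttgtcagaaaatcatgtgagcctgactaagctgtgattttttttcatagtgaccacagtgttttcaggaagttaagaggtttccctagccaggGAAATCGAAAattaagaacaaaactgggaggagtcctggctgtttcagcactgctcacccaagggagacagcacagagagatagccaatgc
Ifi203 promoter (chr1:173942443-173942742, minus strand): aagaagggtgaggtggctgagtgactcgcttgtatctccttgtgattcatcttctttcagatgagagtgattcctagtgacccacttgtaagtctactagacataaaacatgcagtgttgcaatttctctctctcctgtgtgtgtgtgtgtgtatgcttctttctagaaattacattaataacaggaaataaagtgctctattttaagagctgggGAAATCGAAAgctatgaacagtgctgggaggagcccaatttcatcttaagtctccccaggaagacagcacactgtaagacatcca

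Shared sequence also ran through the exons, which bears on how reads of 50 bases were divided between the genes. Of the 50-base stretches in the exons of *Ifi211*, 72.8% occurred in another gene as well, 44.7% in *Ifi205*, 30.1% in *Ifi204* and 17.1% in *Mndal*. The share was 33.7% for *Ifi209*, mostly with *Ifi214*, and 20.0% for *Ifi204*. It was 19.6% for *Mndal*, 18.6% for *Ifi205*, 15.6% for *Ifi213*, 12.4% for *Ifi203* and 7.29% for *Ifi207*. Values of *Ifi211* and *Ifi209* are the least certain of the family for this reason, and whether the deposited counts hold only uniquely mapped reads is not given in the sources used here. The heatmap of shared stretches shows 3 groups of PYHIN genes with no stretch shared between groups, *Ifi213* with *Ifi206* and *Ifi208*, *Ifi209* with *Ifi214*, and the other 6 members with *Ifi203-ps*.

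**Figure D1:**
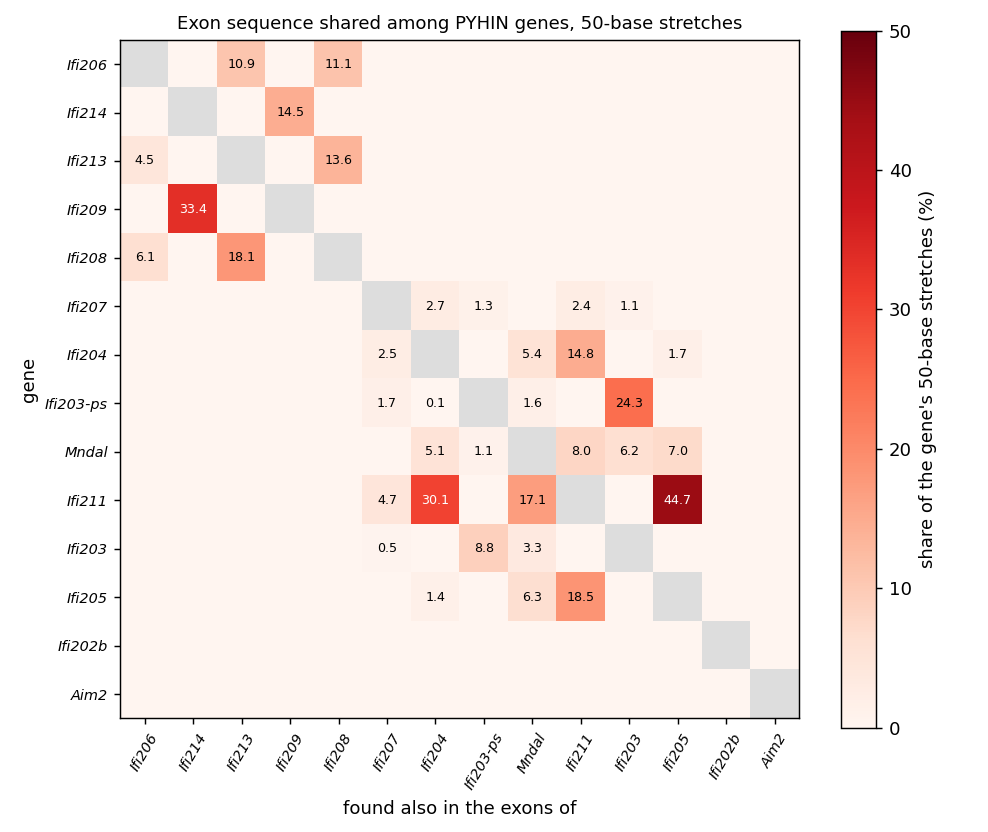
Share of each PYHIN gene's 50-base exon stretches (rows, in %) that also occur in the exons of another PYHIN gene (columns), with shares of at least 0.1% printed and the diagonal in grey. The darkest cell is *Ifi211* with *Ifi205* (44.7%), and *Aim2* and *Ifi202b* share nothing with the others at that size.

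The libraries held 23129212 to 35819339 counted reads, and 17243 genes, all 8 members among them, passed the filter on low counts. *Ifi213* passed only through its counts in Casp8 Tnfr1 dKO livers. In the fit of only Casp8 Mlkl dKO and WT livers, 7 members were tested and *Ifi213* was not. *Casp8* measured 27.7 to 33.9 CPM (a gene's count relative to its library's total, scaled by TMM) in the 5 livers with the gene, 7.82 to 10.2 in Casp8 Mlkl dKO livers and 11.5 to 21.9 in Casp8 Tnfr1 dKO livers. *Mlkl* measured 0.730 to 1.22 CPM in Casp8 Mlkl dKO livers and at least 3.68 in the others. *Tnfrsf1a*, the gene for TNFR1, was not lower in the livers labelled as lacking it (49.8 to 50.5 CPM in Tnfr1 KO against 47.1 to 53.4 in WT), so the count over the whole gene does not check that label. Casp8 Tnfr1 dKO replicate 3 stood apart. Its correlation with any other liver was 0.840 to 0.891, where the other 10 livers correlated at 0.949 or more. It also had the lowest TMM factor (0.758), *Xist* at 3409 CPM against at most 0.570 elsewhere, 425 CPM of *Tnfrsf1a*, 21.9 CPM of *Casp8* against 13.1 and 11.5 in replicates 1 and 2, and 1040 CPM over 5 striated muscle genes against at most 14.9 in the others. Casp8 Mlkl dKO replicate 1 had the next lowest TMM factor (0.812). Counts of called members and some estimates of single members are therefore given with and without these livers. All other results include both.

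All 8 members were highest, by their group mean, in Casp8 Tnfr1 dKO livers. Summed over the members per kilobase of exon, the family reached 42.1 to 54.3 CPM per kb in those livers, against 7.31 to 9.99 in WT, 10.4 to 10.9 in Tnfr1 KO and 12.1 to 23.4 in Casp8 Mlkl dKO livers. The mean sum was 5.26 times that of WT livers, 4.46 times that of Tnfr1 KO livers and 2.85 times that of Casp8 Mlkl dKO livers. In whole tissue, more cells of a type and more RNA per cell cannot be told apart.

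*Ifi204*, the DNA sensor, was the most abundant member by deposited exon length. It measured 6.03, 6.62 and 4.65 CPM in WT livers, 6.84 and 6.15 in Tnfr1 KO livers, 15.7, 9.21 and 9.02 in Casp8 Mlkl dKO livers and 45.6, 35.4 and 48.2 in Casp8 Tnfr1 dKO livers. The Casp8 Tnfr1 dKO livers did not overlap with any other, and the Casp8 Mlkl dKO livers lay above all 5 livers with *Casp8*. Against WT the log2 fold change was 2.90 ± 0.26 (SE), 7.46-fold (edgeR's quasi-likelihood test, adjusted p = 0.000302). Against Tnfr1 KO it was 2.73 ± 0.30 (adjusted p = 0.00198) and against Casp8 Mlkl dKO 1.93 ± 0.25 (adjusted p = 0.00568).

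*Ifi203*, which encodes another HIN-200 protein, measured 7.91, 5.95 and 6.27 CPM in WT livers, 8.07 and 7.52 in Tnfr1 KO livers, 14.2, 10.8 and 7.99 in Casp8 Mlkl dKO livers and 31.6, 24.1 and 31.9 in Casp8 Tnfr1 dKO livers. The last group was again apart from all others, and Casp8 Mlkl dKO replicate 3 lay within the range of the livers with *Casp8*. The log2 fold change of Casp8 Tnfr1 dKO livers was 2.12 ± 0.24 against WT (edgeR adjusted p = 0.000981). It was 1.90 ± 0.27 against Tnfr1 KO (adjusted p = 0.00675) and 1.41 ± 0.23 against Casp8 Mlkl dKO (adjusted p = 0.0165). The call against Casp8 Mlkl dKO was lost without Casp8 Mlkl dKO replicate 2 (1.41, adjusted p = 0.0916) or 3 (1.24, adjusted p = 0.0711). It was also lost in the fit of only these 2 genotypes (adjusted p = 0.200).

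*Ifi211* measured 0.422, 0.880 and 0.789 CPM in WT livers, 0.793 and 0.874 in Tnfr1 KO livers, 1.09, 1.28 and 0.841 in Casp8 Mlkl dKO livers and 5.83, 5.61 and 5.36 in Casp8 Tnfr1 dKO livers. It had the tightest Casp8 Tnfr1 dKO group of the family (5.598 ± 0.236 CPM, SD, n = 3), with replicate 3 close to the other two, and no overlap with any other liver. The log2 fold change was 3.0 ± 0.32 against WT (8.0-fold, edgeR adjusted p = 0.000825), 2.74 ± 0.37 against Tnfr1 KO (adjusted p = 0.00482) and 2.38 ± 0.31 against Casp8 Mlkl dKO (adjusted p = 0.00568). With *Ifi204* and *Ifi203* it was one of the 3 members called in all 3 comparisons. Their calls against WT were kept in 19 of 19 alternatives. Against Tnfr1 KO the call was kept in 17 for *Ifi204*, 16 for *Ifi211* and 16 for *Ifi203*. Against Casp8 Mlkl dKO it was kept in 18 for *Ifi204*, 18 for *Ifi211* and 16 for *Ifi203*.

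*Ifi213* was close to undetected outside Casp8 Tnfr1 dKO livers. Because it passed the filter only through those livers, its fold changes, adjusted p-values and calls below are description only. It had 0, 7 and 1 counts in WT livers, 1 and 2 in Tnfr1 KO livers, 5, 3 and 8 in Casp8 Mlkl dKO livers and 76, 52 and 79 in Casp8 Tnfr1 dKO livers, the last being 2.32, 1.79 and 4.50 CPM. Every Casp8 Tnfr1 dKO liver lay above the 8 others, which overlapped among themselves, and replicate 3 was the highest liver of all. The fitted log2 fold change was 4.66 ± 0.90 against WT (edgeR adjusted p = 0.0160) and 3.85 ± 0.83 against Casp8 Mlkl dKO (adjusted p = 0.0550). Against the 3 counts of both Tnfr1 KO livers the ratio of summed counts per library was 54.7, with an exact 95% interval of 18.4 to 267 that covers counting error only (edgeR adjusted p = 0.0333). WT replicate 2 held 7 of the 8 WT counts, and without it the estimate against WT was 6.90 (adjusted p = 0.0136). The call against WT was lost without WT replicate 1 (4.09, adjusted p = 0.0512), without WT replicate 3 (4.28, adjusted p = 0.0952) and in the fit of only these 2 genotypes (adjusted p = 0.0719). Against Tnfr1 KO it was lost in 6 of 19 alternatives, among them the replicate block (adjusted p = 0.101) and leaving out either Tnfr1 KO liver (5.13 and 6.46).

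*Ifi207* measured 5.88, 7.0 and 6.39 CPM in WT livers, 7.93 and 9.27 in Tnfr1 KO livers, 17.6, 11.5 and 10.1 in Casp8 Mlkl dKO livers and 31.9, 24.9 and 17.2 in Casp8 Tnfr1 dKO livers. Every Casp8 Mlkl dKO liver lay above all 5 livers with *Casp8*, and Casp8 Tnfr1 dKO replicate 3 fell just below Casp8 Mlkl dKO replicate 1. The log2 fold change of Casp8 Tnfr1 dKO livers was 1.94 ± 0.27 against WT (edgeR adjusted p = 0.00380), 1.52 ± 0.31 against Tnfr1 KO (adjusted p = 0.0364) and 0.92 ± 0.27 against Casp8 Mlkl dKO (adjusted p = 0.139). *Ifi207* thus had the lowest of the 8 estimates in the comparisons with Tnfr1 KO and with Casp8 Mlkl dKO. Its call against Tnfr1 KO was lost in 9 of 19 alternatives (estimates 1.29 to 1.63).

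*Mndal*, the family member named after human *MNDA*, measured 5.68, 5.49 and 2.72 CPM in WT livers, 6.21 and 5.01 in Tnfr1 KO livers, 12.7, 6.83 and 5.31 in Casp8 Mlkl dKO livers and 23.004, 16.8 and 16.8 in Casp8 Tnfr1 dKO livers. The Casp8 Tnfr1 dKO livers were apart from all others. Its log2 fold change was 2.03 ± 0.38 against WT (edgeR adjusted p = 0.0133), 1.75 ± 0.43 against Tnfr1 KO (adjusted p = 0.0762) and 1.19 ± 0.36 against Casp8 Mlkl dKO (adjusted p = 0.164). The call against WT was lost without WT replicate 2 (2.17, adjusted p = 0.0545) or 3 (1.77, adjusted p = 0.0602), and without Casp8 Mlkl dKO replicate 1 the adjusted p fell under the threshold against Tnfr1 KO (0.0247) and Casp8 Mlkl dKO (0.0382).

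*Ifi209* measured 0.631 to 1.31 CPM in WT livers, 1.07 and 1.44 in Tnfr1 KO livers, 4.30, 1.48 and 0.879 in Casp8 Mlkl dKO livers and 6.83, 6.23 and 3.93 in Casp8 Tnfr1 dKO livers. The 2 livers that stood apart met here, because Casp8 Mlkl dKO replicate 1, at 3.64 times the mean of its group's other 2 livers, passed Casp8 Tnfr1 dKO replicate 3. Against WT it rose by 2.39 ± 0.57 on the log2 scale (edgeR adjusted p = 0.0386), a call kept in 12 of 19 alternatives and lost without any 1 of the 3 WT livers (adjusted p 0.118 to 0.166), either Tnfr1 KO liver or Casp8 Tnfr1 dKO replicate 1 or 2 (adjusted p 0.0540 to 0.0744). Against Tnfr1 KO the estimate was nearly as large at 2.18 ± 0.65 but missed the threshold (adjusted p = 0.135). Against Casp8 Mlkl dKO it was 1.36 ± 0.54 (adjusted p = 0.275), and without Casp8 Mlkl dKO replicate 1 it was 2.26 (adjusted p = 0.0310).

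*Ifi205*, the inflammasome gene regulator, measured 0.355 to 0.807 CPM in WT livers, 0.328 and 0.342 in Tnfr1 KO livers, 0.459 to 0.892 in Casp8 Mlkl dKO livers and 3.14, 1.89 and 0.855 in Casp8 Tnfr1 dKO livers. Replicate 3 was at 0.339 times the mean of the other 2 livers of its group and lay below Casp8 Mlkl dKO replicate 1. It was the member that passed the threshold in none of these comparisons, with a log2 fold change of 1.86 ± 0.52 against WT (edgeR adjusted p = 0.0675), 2.55 ± 0.63 against Tnfr1 KO (adjusted p = 0.0768) and 1.43 ± 0.51 against Casp8 Mlkl dKO (adjusted p = 0.227). Without replicate 3 the estimate against WT was 2.21 (adjusted p = 0.00972), whereas without replicate 1 it was 1.36 (adjusted p = 0.131) and without WT replicate 3 it was 1.65 (adjusted p = 0.234). It passed the threshold against WT in 4 of 19 alternatives.

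**Figure D2:**
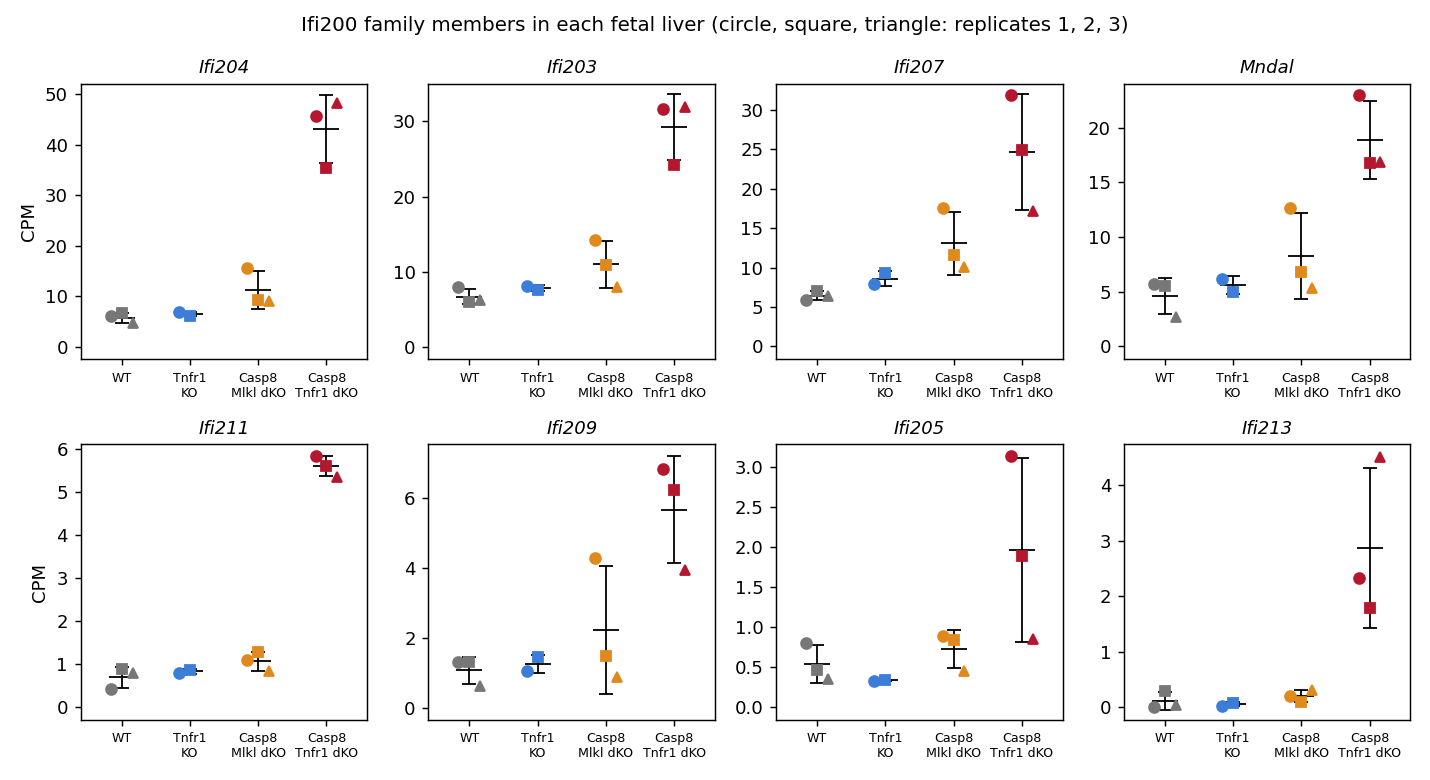
CPM of each member in each of the 11 livers, 1 panel a gene with its own linear axis, points as livers and black bars as the mean ± SD of a genotype (n = 3, 2, 3 and 3). The Casp8 Tnfr1 dKO points lie above every other point in 5 panels, and the triangle, replicate 3, falls below the highest Casp8 Mlkl dKO liver for *Ifi207*, *Ifi209* and *Ifi205*.

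Counted over the family, 7 of 8 members rose in Casp8 Tnfr1 dKO against WT livers, where 5.10% of all tested genes were called higher. Against Tnfr1 KO, 5 of 8 rose (2.05% of all genes called higher), namely *Ifi204*, *Ifi211*, *Ifi203*, *Ifi213* and *Ifi207*. Against Casp8 Mlkl dKO, 3 of 8 rose (1.54% of all genes). No member was called lower. *Ifi213*, counted against WT and Tnfr1 KO, passed the filter only through the livers where it was high. The median log2 fold change of the 8 members was 2.26 against WT, 2.36 against Tnfr1 KO and 1.42 against Casp8 Mlkl dKO, beside medians over all tested genes of -0.0015, -0.014 and -0.033.

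Leaving out the livers that stand apart did not lower these counts. Without Casp8 Tnfr1 dKO replicate 3 the calls were 8 against WT, 7 against Tnfr1 KO and 6 against Casp8 Mlkl dKO. Without Casp8 Mlkl dKO replicate 1 they were 7, 7 and 6, and with both left out, an alternative chosen after seeing the data, all 8 members were called in each of the 3 comparisons. The share of all tested genes called in these refits was not computed. Whether the added calls are particular to the family is therefore not known. Other single livers mattered in the other direction. Leaving out WT replicate 3 left 4 calls against WT and 3 against Tnfr1 KO, and without either of the 2 Tnfr1 KO livers none was called against that genotype.

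In 5 of the 8 members (*Ifi204*, *Ifi203*, *Ifi211*, *Ifi213* and *Mndal*) every Casp8 Tnfr1 dKO liver lay above the 8 other livers, as in 7.43% of all tested genes. An exact two-sided permutation test of the mean log2 CPM, 3 livers against 8, gave 0.00606 for these 5 members, the smallest p that 165 splits allow. It gave 0.0121 for *Ifi207*, *Ifi209* and *Ifi205*. These 8 p-values are unadjusted. The separation and p-value of *Ifi213* are description only, because it passed the filter only through Casp8 Tnfr1 dKO livers.

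Among the other genotypes no member was called by edgeR. In Casp8 Mlkl dKO against WT livers the 8 estimates were all positive, 0.43 to 1.03 with a median of 0.83 (0.028 over all tested genes), and 4 members had an unadjusted p under 0.05 by edgeR. The share of all tested genes with an unadjusted p under 0.05 is not given for this or the next 2 comparisons. Whether such counts of members are particular to the family is therefore not known. DESeq2 and limma-voom also called none, and 0.00580% of all genes, 1 gene, were called higher. *Ifi207* (1.02 ± 0.27, adjusted p = 0.687) and *Ifi204* (0.97 ± 0.25, adjusted p = 0.680) were the members in which all 3 Casp8 Mlkl dKO livers lay above the 5 livers with *Casp8*, a separation seen in 5.61% of all tested genes. Both became calls when the 2 livers that stand apart were left out. In Tnfr1 KO against WT livers 6 of 8 estimates were positive, from -1.08 to 0.42, no gene of the whole table was called in either direction (0%), and no member had an unadjusted p under 0.05 by edgeR or was called by DESeq2 or limma-voom. Between Casp8 Mlkl dKO and Tnfr1 KO livers the 8 estimates ran from 0.37 to 1.90, 1 member (*Ifi204*) had an unadjusted p under 0.05, no member was called by any of the 3 tools, and 0.00580% of all genes were called higher.

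**Figure D3:**
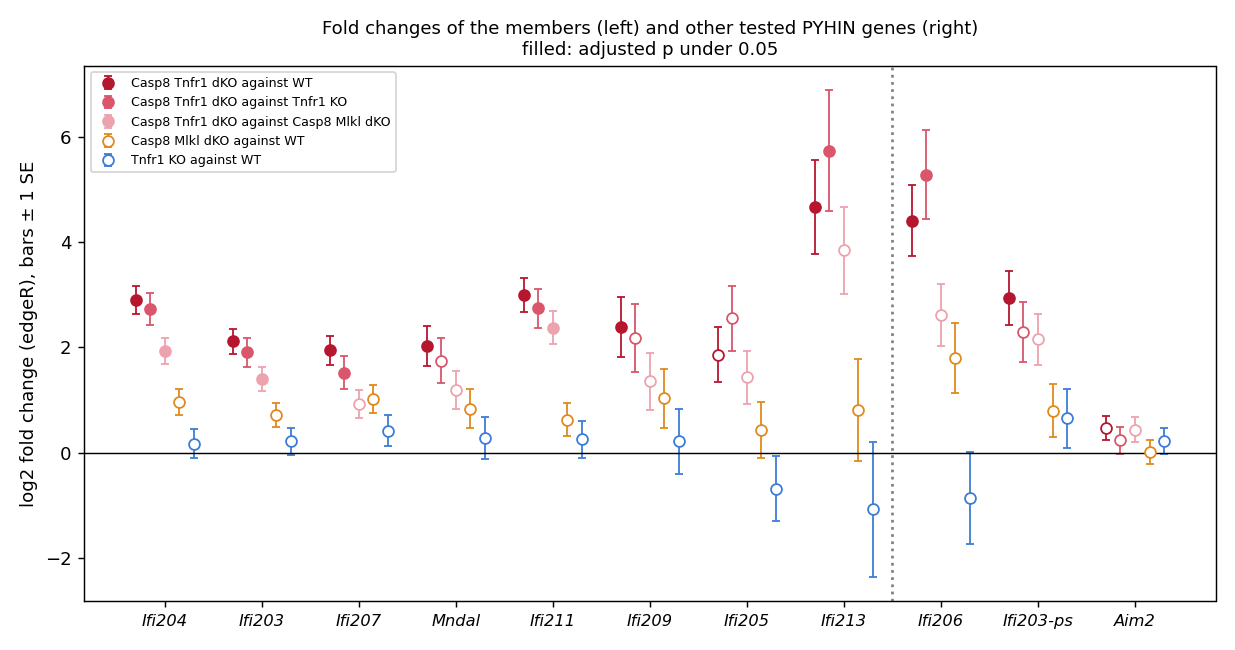
Log2 fold change from edgeR with bars of ± 1 SE for the 8 members (left of the dotted line) and 3 other tested PYHIN genes (right) in 5 comparisons, filled where the adjusted p is under 0.05. The 3 red series are Casp8 Tnfr1 dKO against WT, Tnfr1 KO and Casp8 Mlkl dKO, and all 8 members have positive values in each, from 0.92 to 5.74, while no orange or blue point is filled.

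The members differed among themselves in level and in share. Per kilobase of deposited exon length, the WT order was *Ifi204* (2.51 ± 0.440 CPM per kb, SD, n = 3), *Mndal* (2.25 ± 0.803), *Ifi207* (1.88 ± 0.164), *Ifi203* (1.33 ± 0.208), *Ifi211* (0.391 ± 0.136), *Ifi205* (0.335 ± 0.146), *Ifi209* (0.314 ± 0.113) and *Ifi213* (0.0223 ± 0.0320). In range, *Ifi204* overlapped with *Mndal*, *Mndal* with *Ifi207*, *Ifi211* with *Ifi205* and *Ifi205* with *Ifi209*. *Ifi203* (1.18 to 1.57) lay apart from its neighbours in this order, *Ifi207* and *Ifi211*, but overlapped with *Mndal* (1.32 to 2.76). *Ifi213* lay below all. In Casp8 Tnfr1 dKO livers *Ifi204* stood clear of the rest at 18.8 ± 2.95 CPM per kb, followed by *Mndal* (9.15 ± 1.74), *Ifi207* (7.21 ± 2.15), *Ifi203* (5.79 ± 0.872), *Ifi211* (3.14 ± 0.132), *Ifi209* (1.65 ± 0.445), *Ifi205* (1.22 ± 0.710) and *Ifi213* (0.576 ± 0.289). There *Mndal* overlapped with *Ifi207*, *Ifi207* with *Ifi203*, *Ifi209* with *Ifi205* and *Ifi205* with *Ifi213*.

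Taking as length only the 50-base stretches that occur in no other gene moved *Ifi211* most, from 3.14 to 11.9 CPM per kb in Casp8 Tnfr1 dKO livers, where it then ranked second behind *Ifi204* (15.3). Which of the lengths suits the counts depends on how reads that fit several genes were counted, which is not given. In WT livers *Ifi207* (2.09) and *Ifi204* (2.05) then led with overlapping ranges. Fold changes between genotypes are not touched by the choice of length, but the order of the genes is.

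As a share of the summed level per length, *Ifi204* made up 36.6% to 45.6% of the family in Casp8 Tnfr1 dKO livers and at most 32.4% in any other liver. *Ifi207* made up 10.9% to 17.3%, below the lowest other liver at 17.6%, and *Ifi213* made up 0.853% to 1.96%, above the highest other liver at 0.590%. An exact two-sided permutation test of 3 against 8 livers gave 0.00606 for each of these 3 shares, 0.0242 for *Ifi211* (6.66% ± 0.737 in Casp8 Tnfr1 dKO livers, 3.81% to 4.47% as means elsewhere) and 0.0485 for *Mndal* (19.2% ± 1.44, against means of 23.5% to 25.5%). For both of these members WT replicate 3 overlapped with the Casp8 Tnfr1 dKO livers. Its *Ifi211* share was 6.05%, above the 6.01% of Casp8 Tnfr1 dKO replicate 1. Its *Mndal* share was 18.0%, within the Casp8 Tnfr1 dKO range of 17.7% to 20.5%. The test gave larger values for *Ifi203* (0.121), *Ifi205* (0.618) and *Ifi209* (0.927). The 8 p-values are unadjusted, and shares of 1 sum depend on each other. The share of *Ifi213* carries the same limit from the filter as its level. By unique stretches the mean share of *Ifi204* was 30.8% in Casp8 Tnfr1 dKO livers and 21.6% to 24.7% elsewhere, and that of *Ifi211* was 23.97% against 14.6% to 16.7%.

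**Figure D4:**
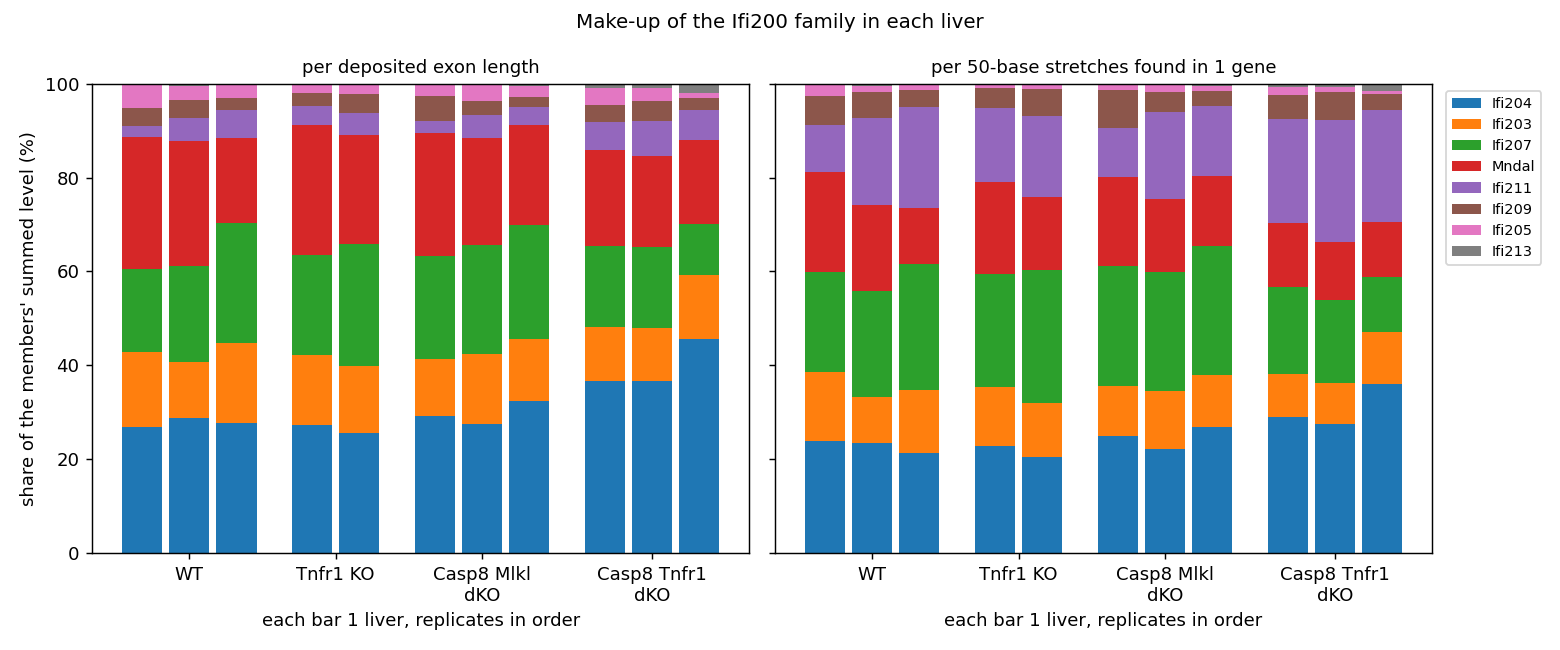
Share of each member in the summed level of the 8 members, in % from 0 to 100, for each liver (1 bar a liver), per deposited exon length (left) and per 50-base stretch found in 1 gene only (right). The blue *Ifi204* segment is at 36.6% or more in the 3 Casp8 Tnfr1 dKO bars of the left panel and at most 32.4% in the others, and the purple *Ifi211* segment is several times larger on the right.

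Of the other PYHIN genes in the files, *Ifi206* and *Ifi203-ps* rose in Casp8 Tnfr1 dKO against WT livers and *Aim2* did not pass the test. *Ifi206* had 3 to 6 counts in WT livers, 1 and 5 in Tnfr1 KO livers, 29, 9 and 11 in Casp8 Mlkl dKO livers and 169, 114 and 38 in Casp8 Tnfr1 dKO livers, with a log2 fold change of 4.41 ± 0.67 against WT (edgeR adjusted p = 0.00571). *Ifi203-ps*, which shared 24.3% of its 50-base stretches with *Ifi203*, measured 0.419 to 0.768 CPM in WT livers and 3.97, 2.24 and 8.95 in Casp8 Tnfr1 dKO livers (2.95 ± 0.52, adjusted p = 0.0105). *Aim2*, the inflammasome sensor, measured 10.02 to 10.9 CPM in WT livers, 12.4 and 11.7 in Tnfr1 KO livers, 9.49 to 10.95 in Casp8 Mlkl dKO livers and 12.5, 10.3 and 19.9 in Casp8 Tnfr1 dKO livers, where replicate 3 was highest, replicate 1 lay just above and replicate 2 within the range of the other 8 livers. The estimate for *Aim2* was 0.46 ± 0.23 on the log2 scale against WT (edgeR adjusted p = 0.242) and 0.44 ± 0.23 against Casp8 Mlkl dKO (adjusted p = 0.394). *Ifi208*, *Ifi214* and *Ifi202b* had at most 3 counts in any liver, at or under the floor of 3 counts (0.0820 to 0.171 CPM), so no fold is given.

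Of the 10 nearest tested genes that are no PYHIN genes, 5 on each side of the cluster, 8 are described. None of these was called by edgeR in the 3 comparisons of Casp8 Tnfr1 dKO livers or in Casp8 Mlkl dKO against WT. Over all tested genes 5.10% were called higher against WT, 2.05% against Tnfr1 KO, 1.54% against Casp8 Mlkl dKO and 0.00580% in the last comparison. The lack of calls among 8 genes therefore does not set them apart from other genes. Beside the cluster *Ackr1*, a chemokine receptor of erythroid and endothelial cells, had a log2 fold change of -0.43 ± 0.18 against WT (adjusted p = 0.181). *Cadm3*, an adhesion molecule, had 0.47 ± 0.51 (adjusted p = 0.563). The 8 estimates against WT ran from -0.86 ± 0.34 for *Kmo*, an enzyme of tryptophan breakdown (adjusted p = 0.153), to 0.998 ± 0.775 for *Apcs*, serum amyloid P of hepatocytes (adjusted p = 0.432).

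**Figure D5:**
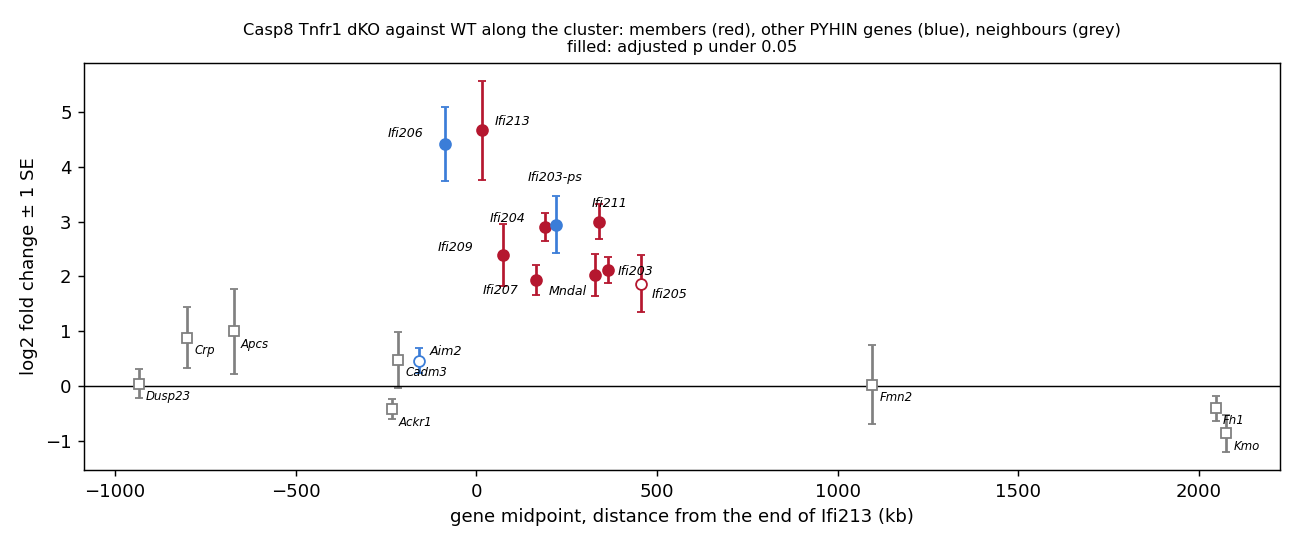
Log2 fold change of Casp8 Tnfr1 dKO against WT livers (edgeR, ± 1 SE) for members (red), other tested PYHIN genes (blue) and 8 of the 10 nearest other tested genes (grey), by the distance of the gene's midpoint from the end of *Ifi213* in kb. Filled points, with an adjusted p under 0.05, are the 7 called members, *Ifi206* and *Ifi203-ps*, and no neighbour is filled.

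Among the 5 genes whose profile over the 11 livers lay nearest to the mean profile of the 8 members were *Ms4a6d* (root mean square difference 0.184 on the log2 scale), *Msr1* (0.192), *Gbp2* (0.194) and *Parp9* (0.200). The members themselves lay at 0.202 (*Ifi204*) to 1.04 (*Ifi213*) and the median of the other tested genes at 1.12. *Ms4a6d*, which encodes a membrane protein of macrophages, measured 2.68 to 3.92 CPM in WT, 3.57 and 4.29 in Tnfr1 KO, 3.94 to 6.85 in Casp8 Mlkl dKO and 16.8 to 20.4 in Casp8 Tnfr1 dKO livers. *Msr1*, a macrophage scavenger receptor, measured 10.1 to 14.6, 11.4 and 12.3, 13.6 to 21.5 and 43.9 to 63.9 CPM in the same order. In both, the mean of the Casp8 Mlkl dKO livers lay between those of the Casp8 Tnfr1 dKO livers and of the livers with *Casp8*. *Gbp2* encodes an interferon-induced GTPase and *Parp9* an interferon-induced partner of ubiquitin ligases.

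Genes of nucleic acid sensing and inflammasomes, a list that includes *Aim2*, rose in part. Of 20 tested, 10 rose in Casp8 Tnfr1 dKO against WT livers, 8 against Tnfr1 KO and 7 against Casp8 Mlkl dKO, none fell, and the median log2 fold change was 0.97, 0.99 and 0.75. Against WT, *Zbp1*, a sensor of Z-form nucleic acids, rose by 5.64 ± 0.39 on the log2 scale (edgeR adjusted p = 6.43e-05), *Irf7*, an interferon regulatory factor, by 4.67 ± 0.34 (adjusted p = 9.08e-05) and *Casp4*, the inflammatory caspase-11, by 4.43 ± 0.60 (adjusted p = 0.00305). Of 14 tested genes of interferon receptors and signalling, 6, 5 and 4 rose in the 3 comparisons and none fell, with medians of 0.71, 0.66 and 0.49. *Usp18*, a feedback inhibitor of the type I interferon receptor, had 4.29 ± 0.39 against WT (edgeR adjusted p = 0.000294), and *Stat2*, a transcription factor of that pathway, had 2.13 ± 0.28 (adjusted p = 0.00264).

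Other interferon-induced families also rose. Of 11 guanylate-binding protein genes, which encode GTPases that attack intracellular pathogens, 8 rose against WT (median 3.0), 8 against Tnfr1 KO (2.91) and 7 against Casp8 Mlkl dKO (1.92). The 3 with the largest change against WT were *Gbp3* (3.37 ± 0.28, edgeR adjusted p = 0.000200), *Gbp9* (3.17 ± 0.27, adjusted p = 0.000200) and *Gbp11* (3.13 ± 0.32, adjusted p = 0.000693). Of 8 Schlafen genes, which act in growth control and antiviral defence, 5, 5 and 3 rose (medians 2.76, 2.70 and 1.499), led against WT by *Slfn4* (7.82 ± 1.28, adjusted p = 0.00773). No gene of these 4 lists was called in Casp8 Mlkl dKO or Tnfr1 KO against WT livers. Beside them, the 8 PYHIN members had medians of 2.26, 2.36 and 1.42, and no difference between the families was tested.

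Markers of myeloid cells, which express PYHIN genes, also differed. Of 8 monocyte and neutrophil markers 4 rose against WT, namely *S100a9* (3.53 ± 0.70, edgeR adjusted p = 0.0182), *S100a8* (3.31 ± 0.61, adjusted p = 0.0130), *Itgam* (2.92 ± 0.52, adjusted p = 0.0116) and *Ly6c2* (1.60 ± 0.32, adjusted p = 0.0197). The other 4 were not called against WT, with *Ly6g* at 1.88 ± 0.85, *Elane* at 0.45 ± 0.60, *Mpo* at 0.39 ± 0.69 and *Ccr2* at -0.10 ± 0.60 (edgeR adjusted p 0.207 to 0.925). *Itgam* and *S100a8* also rose against Tnfr1 KO, and none of the 8 was called against Casp8 Mlkl dKO. The summed level of these 8 genes was 3293 to 9980 CPM in Casp8 Tnfr1 dKO livers, 793 to 1157 in WT, 988 to 990 in Tnfr1 KO and 992 to 1883 in Casp8 Mlkl dKO livers. Of 12 macrophage markers, *Cd68* rose against WT (0.90 ± 0.20, adjusted p = 0.0293) while *Clec4f*, a lectin of Kupffer cells (-4.23 ± 1.04, adjusted p = 0.0436), and *Marco*, a scavenger receptor (-1.51 ± 0.38, adjusted p = 0.0495), fell. Against Casp8 Mlkl dKO 3 of the 12 fell and none rose. The macrophage sum was 402 to 545 CPM in Casp8 Tnfr1 dKO livers and 565 to 1715 in the others, and no marker of either list was at 0 in every liver of a genotype.

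Marker sums and the family sum are set side by side for the 2 livers that stood apart. Casp8 Tnfr1 dKO replicate 3 had 9980 CPM of monocyte and neutrophil markers against 3293 and 4019 in replicates 1 and 2. Its macrophage markers were at 402 CPM against 545 and 509. Its family sum, 46.1 CPM per kb, lay between theirs (54.3 and 42.1). Casp8 Mlkl dKO replicate 1 had 1715 CPM of macrophage markers against 712 and 779 in the other 2 livers of its group. Its monocyte and neutrophil markers were at 1883 CPM against 992 and 1091, and its family sum at 23.4 CPM per kb against 14.5 and 12.1. Hepatocyte, erythroid and B lymphoid markers held no call in any comparison of Casp8 Tnfr1 dKO livers, and 1 of 5 endothelial markers was higher against WT. The part of these cell types in the levels of the family was not tested.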

How the data were processed

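RNA of 11 mouse fetal livers was sequenced as single-end reads of 50 bases. The labels name a TruSeq RNA v2 kit and a HiSeq4000, the study's methods a stranded mRNA kit and a NovaSeq, and whether counting used strand is not given in the sources used here. The authors aligned reads to GRCm38 with GSNAP and deposited exonic read counts per gene, an exon length per gene (here the width in bases) and RPKM, which was not used. The study's own tests used uniquely mapped reads, and whether the deposited counts do is not given in the sources used here. Groups came from the titles.

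Genes with too few reads were removed (filterByExpr, minimum count 10), counts were scaled by TMM, and 1 model over all 11 livers was fitted with edgeR 4.0.16 (R 4.3.3) and its quasi-likelihood test, with Benjamini-Hochberg adjustment over 17243 genes and a threshold of 0.05. The scripts were tested on simulated data. Log2 CPM used a prior count of 2. The study used limma, and the count test was taken here because raw counts were deposited. DESeq2 1.42.0, limma-voom (limma 3.58.1), other scaling and filters, fits of 2 genotypes, a replicate block and leaving out each liver were alternatives. No 2 livers were copies of 1 library (lowest chi-square per degree of freedom between livers 6.03).

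The members and all gene lists were chosen with earlier results of these data known. Named were all members, the other PYHIN genes, the targeted genes, 5 neighbours on each side, the 5 genes of most similar profile and at most 3 called genes of largest change in each of 4 lists. Results of 3 of these genes are not reported here. *Xist*, named markers and the muscle sum were given after their values were seen. Exons and shared stretches came from GENCODE M21 and promoters from RefSeq (GRCm38.p6).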

Additional observations from a re-analysis of the deposited data

How the results depend on the processing

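No fold change of a member reversed under any alternative. Over 607 refitted values in 4 comparisons, 529 kept their side of the threshold, 40 lost it and 38 gained it. Of members called against Tnfr1 KO (5), DESeq2 gave 8, the fit of only the 2 genotypes 1, and leaving out both livers of low TMM factor 8, an alternative chosen after seeing the data. Against Casp8 Mlkl dKO (3), these gave 6, 0 and 8. In Casp8 Mlkl dKO against WT livers (0), leaving out both gave 2. Leaving out 1 liver at a time gave 4 to 8 calls against WT (4 without WT replicate 3), 0 to 7 against Tnfr1 KO (0 without either Tnfr1 KO liver, when the lone liver is assumed to vary like the other groups, and 3 without WT replicate 3) and 2 to 6 against Casp8 Mlkl dKO (6 without Casp8 Tnfr1 dKO replicate 3 or Casp8 Mlkl dKO replicate 1, and 2 without Casp8 Mlkl dKO replicate 2 or 3). The causes of these shifts were not tested.

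The replicate numbers come only from the titles. After each genotype's mean was subtracted, same-numbered livers of different genotypes correlated at -0.297 to 0.275 over 15 pairs. Pairs of different number were not set beside them, so these values cannot decide whether the numbers mark a pairing. With the replicate block the calls were 8 against WT, 6 against Tnfr1 KO and 3 against Casp8 Mlkl dKO, and 0 in the other comparisons.

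Depth limits *Ifi213*, *Ifi205*, *Ifi211* and *Ifi206* most, with counts under 30 in every WT and Tnfr1 KO liver. In shares of the family without *Ifi204*, the other 7 members all rose by construction.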
